A study of Homo sapiens with 6 samples.

Results

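Genes of nicotinamide methylation, the methionine cycle and transsulfuration were followed in HCCLM3, an established human liver cancer line with a strong tendency to metastasise. They are NNMT, CBS, CBSL, CTH, MAT2A, MAT2B, AHCY, AHCYL1, MTR and MTAP, 10 of the 58302 genes listed, and were picked by symbol for their place in this metabolism. The set was drawn up with the SCARNA13 ASO against Control ASO results of these libraries in view. Differences between the groups are therefore given for the 10 genes as a description, with no p-value. Where a fit over all genes called a member, the call is listed but is not evidence about it. All 6 libraries came from HCCLM3 cells transfected with an antisense oligonucleotide (ASO), a synthetic nucleic acid designed to bind 1 RNA and deplete it. In 3 libraries this was Control ASO and in 3 it was SCARNA13 ASO, aimed at a small RNA of Cajal bodies. The labels used here give neither ASO dose nor time, and do not say whether libraries of a group were separate cultures. The p-values given for other genes therefore rest on library-to-library spread alone, which may be technical.

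Methionine is activated to S-adenosylmethionine (SAM), the methyl donor of the cell, by methionine adenosyltransferase. NNMT spends SAM on nicotinamide, giving methylnicotinamide, which is excreted, and S-adenosylhomocysteine. AHCY splits S-adenosylhomocysteine into adenosine and homocysteine. Homocysteine is either methylated back to methionine by MTR or passed through CBS and CTH to cysteine, the route called transsulfuration, and MTAP returns the methylthioadenosine left by polyamine synthesis to methionine. The liver is the main site of this metabolism in the body.

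The libraries held 20457474 to 25173559 reads assigned to genes. Values are FPKM, reads scaled to gene length and library size, so levels can be compared between genes with their own sequence. The library size used for that scale equals 0.633 and 0.760 of the reads in the replicate 3 libraries of control and SCARNA13 ASO, and 1.21 to 1.24 times the reads in the remaining 4. SCARNA13 itself rested on 13 reads in controls and 7 after SCARNA13 ASO, and SNHG10, its host transcript, on 657 and 491. Replicate 3 lay away from replicates 1 and 2 in both groups, by an amount that followed the GC content of genes (Pearson r = 0.79 in control and 0.80 in SCARNA13 ASO over 10104 genes, which are not independent replicates). Among markers, the keratins KRT8 and KRT18 were abundant, at 766 FPKM or more in every library, while the hepatocyte genes ALB and APOB and the carcinoma marker GPC3 were at 0 in all 6 and AFP, APOA1, TTR and HNF4A stayed below 0.5 FPKM. SERPINA1, a secreted protein of hepatocytes, was present at a low level, 1.37 to 3.20 FPKM. Of the 10 markers on that list, 3 were thus at 0 in all libraries and 3 stood above 0.5 FPKM. In bulk RNA, fewer cells of a type and less RNA per cell cannot be told apart.

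CBS and CBSL are shown as sequence first, because their values cannot be read without it. Both lie on the minus strand of chromosome 21 (GRCh38), CBS (ENSG00000160200) at 43053191 to 43076943 and CBSL (ENSG00000274276) at 6444869 to 6468040. In GENCODE 29, the transcripts CBS-203 and CBSL-206 are both 2453 bases long, code through 1653 bases and differ at 1 base, C699T, counted from the first coding base with the CBS letter first. The exon stretches around it follow, chr21:43065211-43065270 for CBS and chr21:6456889-6456948 for CBSL, both read on the minus strand, with the differing base in capitals.
CBS: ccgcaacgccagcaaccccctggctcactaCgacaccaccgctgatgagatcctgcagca
CBSL: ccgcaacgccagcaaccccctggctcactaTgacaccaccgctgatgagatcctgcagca
The start of the coding sequence, chr21:43072074-43072193 in CBS and chr21:6463752-6463871 in CBSL, is the same in both and stands for the rest of it.
CBS and CBSL: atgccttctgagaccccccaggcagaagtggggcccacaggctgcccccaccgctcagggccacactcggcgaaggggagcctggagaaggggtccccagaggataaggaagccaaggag
A read from such a stretch has the same sequence whichever gene it came from. Of all distinct 100-base windows in CBSL transcripts, 83.5% also occur in a CBS transcript. The share of CBS windows found in CBSL was 50.3%, as more of the annotated CBS isoforms are its own. How the authors' counting treated reads that match both genes is not stated, and the build they name, hg19, is not the build of these positions. Whether CBSL is a gene apart from CBS in these cells was not tested. Nor was the base that reads carried at C699T.

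NNMT, nicotinamide N-methyltransferase (ENSG00000166741), was the member that differed most evenly between the groups. The gene lies on the plus strand of chromosome 11 at 114257787 to 114313285, and none of its 2919 exonic bases is shared with another annotated gene. Control libraries 1, 2 and 3 held 34, 33.4 and 43.7 FPKM, and SCARNA13 ASO libraries 1, 2 and 3 held 62.6, 60.2 and 90.9 FPKM. Every SCARNA13 ASO library was above every control library. In each group replicate 3 was the highest in FPKM but had the fewest NNMT reads, 1668 in control and 4127 after SCARNA13 ASO. The place of replicate 3 thus depends on the library size used for scaling. The means were 37.0 FPKM ± 5.75 and 71.2 FPKM ± 17.1 (SD, n = 3), a ratio of 1.92, from 7283 and 14095 reads. Within replicate numbers the ratio was 1.84, 1.80 and 2.08.

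As log2(FPKM + 0.5), a scale on which changes of low genes come out too small, NNMT differed by 0.92 ± 0.27 (SE, n = 3) with no replicate block. With a GC correction plus a replicate block the difference was 0.95 ± 0.062. Over all 25 settings tried it ran from 0.73, without SCARNA13 ASO replicate 3, to 1.04, without Control ASO replicate 3, and was positive in each. NNMT was the only member, of 10, whose groups did not overlap. Among 10120 genes averaging 1 FPKM or more, SCARNA13 ASO was higher with no overlap for 4.0% and lower for 4.44%. Since this contrast chose NNMT, nothing is read from that count.

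**Figure D1:**
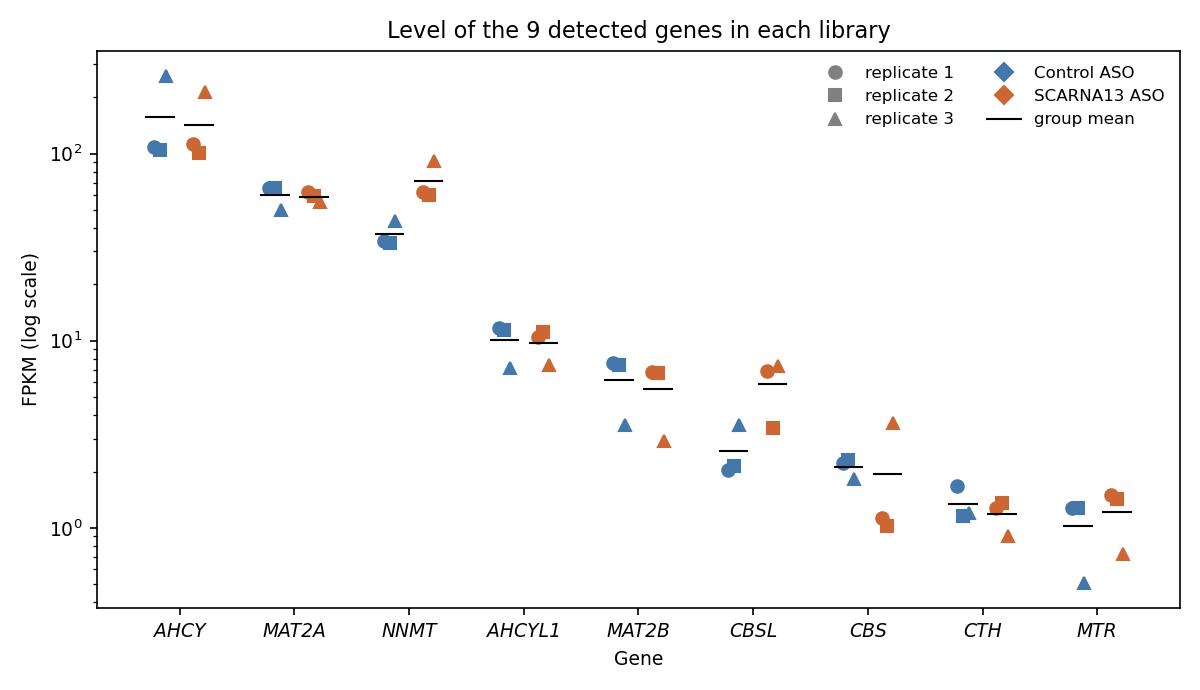
FPKM (log axis) of the 9 members with reads, in order of their control mean; each point is a library, the symbol gives the replicate number, the colour the group, and the line the group mean of 3 libraries. NNMT is the only gene with all 3 SCARNA13 ASO points above all 3 control points; replicate 3 is the highest library of AHCY and the lowest of MAT2B and MTR in both groups.

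NNMT is also high in fibroblasts, so fibroblast markers are given beside it. Summed over the 7 markers they ranged from 5.83 to 6.89 FPKM in controls, and from 6.24 to 8.61 FPKM after SCARNA13 ASO, and most of that was COL3A1, a fibrillar collagen gene. COL3A1 held 5.58, 5.81 and 4.26 FPKM in Control ASO 1, 2 and 3 and was higher in each same-numbered SCARNA13 ASO library, at 7.13, 6.88 and 4.61 FPKM, with overlapping groups. COL1A1 lay between 0.308 and 0.529 FPKM and LUM between 0 and 0.208 FPKM. COL1A2, DCN and PDGFRA were at or near 0, with no library above 0.0109 FPKM. PDGFRB, a receptor of fibroblasts and pericytes, held 0.419, 0.600 and 1.04 FPKM in controls, against 0.914, 0.904 and 1.31 FPKM with SCARNA13 ASO. PDGFRB too was higher in 3 of 3 replicate numbers with overlapping groups, and the part of cells carrying these markers in the NNMT values was not tested.

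Across the 6 libraries, the log2 values most like those of NNMT belonged to DYSF, a membrane repair gene (Pearson r = 0.998), HSPA5, a chaperone of the endoplasmic reticulum (0.997), FN1, encoding fibronectin (0.995), SERPINB6 (0.995) and the copper transporter ATP7B (0.993). DYSF held 2.40, 2.55 and 3.30 FPKM in controls, against 4.89, 4.67 and 6.88 FPKM with SCARNA13 ASO, in replicate order. Of 10119 genes compared, 147 (1.45%) had r over 0.9. All 6 points share the group difference and the replicate 3 shift, so the likeness is a description. Among members with their own sequence, r with NNMT was 0.33 for AHCY, -0.17 for MTR, -0.43 for MAT2A, -0.49 for AHCYL1, -0.58 for MAT2B and -0.61 for CTH.

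CBS, cystathionine beta-synthase, and its copy CBSL moved in opposite directions in replicates 1 and 2 and in the same direction in replicate 3. CBS held 2.23, 2.30 and 1.82 FPKM in controls, against 1.13, 1.03 and 3.65 FPKM with SCARNA13 ASO, in replicate order. It was lower by about the same amount in SCARNA13 ASO 1 and 2 and higher in SCARNA13 ASO 3, so the groups overlapped. CBSL held 2.04, 2.13 and 3.55 FPKM in controls, against 6.88, 3.42 and 7.36 FPKM with SCARNA13 ASO. It was higher in each replicate number, yet SCARNA13 ASO 2 lay below Control ASO 3, so these groups overlapped too. The log2 difference with no block was -0.26 ± 0.41 for CBS and 1.02 ± 0.34 for CBSL (SE, n = 3). Without replicate 3 of both groups they were -0.81 ± 0.090 and 1.06 ± 0.29 (SE, n = 2).

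The share of the pair's reads listed under CBSL changed from library to library by more than counting error. It was 35.0% (exact 95% interval 31.5 to 38.7) in Control ASO 1, 35.4% (31.7 to 39.2) in Control ASO 2 and 53.4% (48.1 to 58.8) in Control ASO 3. After SCARNA13 ASO it was 78.2% (75.4 to 80.7), 66.2% (62.2 to 70.0) and 54.3% (50.9 to 57.7) in libraries 1, 2 and 3. In replicate 3 the shares of the 2 groups lay within each other's interval, while in replicates 1 and 2 they lay far apart. Intervals cover counting error only, since reads without molecular identifiers are not independent molecules.

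The sum over both copies removes that division, but it would not restore reads dropped for matching both, whose handling is not stated. It is therefore not a measured level of CBS. The sum did not rise in every replicate. In RPM, reads scaled to the library size behind the FPKM, CBS and CBSL together came to 23.3, 24.1 and 26.6 in controls and 35.2, 20.7 and 54.2 after SCARNA13 ASO. On this scale SCARNA13 ASO 2 was the lowest of the 6 libraries and SCARNA13 ASO 3 the highest. That order depends on the scale, whose library size was 0.633 and 0.760 of the reads in the replicate 3 libraries of control and SCARNA13 ASO. In reads before scaling, Control ASO 3 was the lowest, with 348, and SCARNA13 ASO 1 the highest, with 957. The means were 24.7 ± 1.72 and 36.7 ± 16.8 (SD, n = 3), and the ratio within replicates was 1.51, 0.857 and 2.04. Summed as FPKM, where CBSL reads weigh more because its gene model is shorter (4004 against 6786 bases), the values were 4.26, 4.43 and 5.37 in controls and 8.01, 4.45 and 11.0 after SCARNA13 ASO, and the ratio in replicate 2 was 1.00. The log2 difference of the FPKM sum was 0.60 ± 0.33 with no block and 0.67 ± 0.23 with GC correction and block (SE, n = 3), against 1.09 ± 0.19 for CBSL alone in the latter fit. It was 0.33 without SCARNA13 ASO replicate 3 and 0.94 without SCARNA13 ASO replicate 2.

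A second near-identical pair lies next to these copies, U2AF1 and U2AF1L5, genes of a splicing factor, chosen after its values were seen. Their transcripts share 89.4% of the distinct 100-base windows of either gene. U2AF1L5 took 93.6%, 75.9% and 87.5% of the pair's reads in Control ASO 1, 2 and 3, and 85.9%, 67.0% and 27.7% in SCARNA13 ASO 1, 2 and 3. The summed RPM were 45.4, 17.5 and 13.5 in controls and 13.9, 16.2 and 48.0 after SCARNA13 ASO. The ratio of these sums was 0.306, 0.926 and 3.57 in replicates 1, 2 and 3, so its direction differed between replicates 1 and 3. For U2AF1 and U2AF1L5, both the shares and the sums thus varied between libraries of 1 group. The CBS and CBSL sum ran from 23.3 to 26.6 RPM in controls and from 20.7 to 54.2 RPM after SCARNA13 ASO.

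**Figure D2:**
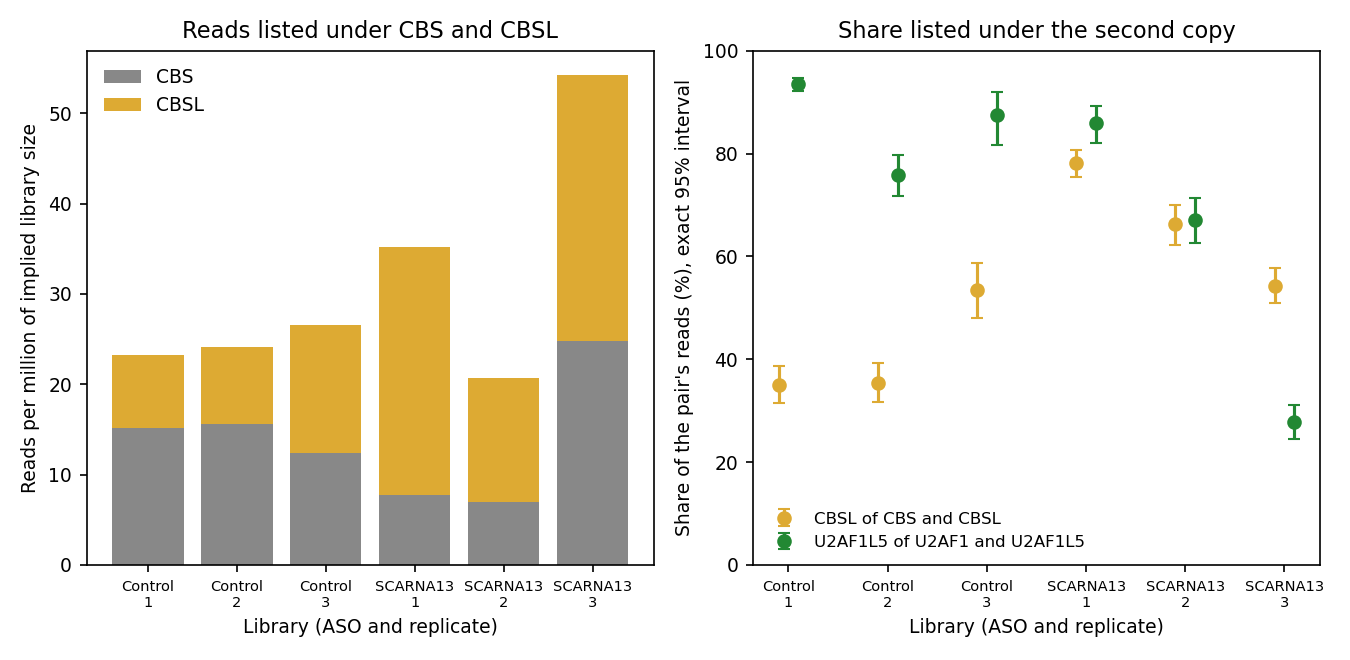
Left, RPM listed under CBS (grey) and CBSL (yellow), stacked, in each library. Right, the share of the pair's reads listed under CBSL and, for comparison, under U2AF1L5, with exact 95% intervals for counting error. The CBSL share was 35.0% to 53.4% in controls and 54.3% to 78.2% after SCARNA13 ASO, and the U2AF1L5 share was lowest, 27.7%, in SCARNA13 ASO 3.

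CTH, cystathionine gamma-lyase (ENSG00000116761, chromosome 1 at 70411218 to 70439851), completes transsulfuration by releasing cysteine. It was a low gene, with 235 reads in controls and 212 after SCARNA13 ASO. Control libraries held 1.68, 1.15 and 1.20 FPKM and SCARNA13 ASO libraries 1.28, 1.37 and 0.906 FPKM. The groups overlapped, and the direction differed between replicates, with ratios of 0.765, 1.19 and 0.753. The log2 difference was -0.13 ± 0.22 with no block and -0.14 ± 0.14 with GC correction and block (SE, n = 3).

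MAT2A, the catalytic subunit that makes SAM outside the adult liver (ENSG00000168906, chromosome 2 at 85539165 to 85545280), was the second most abundant member in controls, and lay below NNMT in all 3 SCARNA13 ASO libraries. It held 65.9, 65.2 and 50 FPKM in controls, against 62.3, 59.4 and 54.9 FPKM with SCARNA13 ASO. The means of 60.4 FPKM ± 8.96 and 58.9 FPKM ± 3.76 (SD, n = 3) differed by less than the spread between libraries, and replicate 3 was the lowest in each group. GGCX exons cover 558 of its 4487 exonic bases, where reads cannot be assigned without strand. MAT2B, the regulatory subunit (chromosome 5 at 163503114 to 163519336), held 7.64, 7.40 and 3.53 FPKM in controls, against 6.83, 6.75 and 2.91 FPKM with SCARNA13 ASO. It was lower in 3 of 3 replicate numbers, by ratios of 0.893, 0.911 and 0.824, yet the drop from replicates 1 and 2 to replicate 3 was larger than any of these. Its log2 difference was -0.17 ± 0.42 with no block and -0.20 ± 0.072 with GC correction and block (SE, n = 3), and was 0.19 without SCARNA13 ASO replicate 3.

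The isoenzyme of the adult liver was nearly absent. MAT1A gave 79 reads in all 6 libraries and at most 0.28 FPKM, so MAT2A exceeded it in every library. The betaine enzymes of liver homocysteine methylation, BHMT and BHMT2, gave 0 reads in all 6, and GNMT, which uses up excess SAM in liver, stayed between 0.307 and 2.28 FPKM. These levels hold in both groups.

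AHCY, which hydrolyses S-adenosylhomocysteine (ENSG00000101444, chromosome 20 at 34280268 to 34311802), was the most abundant member. It held 108, 104 and 260 FPKM in controls, against 112, 100 and 213 FPKM with SCARNA13 ASO. Replicate 3 stood far above the other libraries in both groups, while same-numbered libraries differed by 0.05, -0.05 and -0.29 on the log2 scale. The means were 157 FPKM ± 88.6 and 142 FPKM ± 61.8 (SD, n = 3). AHCYL1, an AHCY-like protein that regulates calcium channels and ion transporters (chromosome 1 at 109984686 to 110023741), held 11.7, 11.4 and 7.16 FPKM in controls, against 10.4, 11.2 and 7.41 FPKM with SCARNA13 ASO. With GC correction and block, the log2 difference was -0.03 ± 0.058 for AHCY and -0.04 ± 0.063 for AHCYL1 (SE, n = 3).

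MTR, the methionine synthase that needs vitamin B12 and methylfolate (ENSG00000116984, chromosome 1 at 236795281 to 236903981), had the lowest control mean of the members with reads. With SCARNA13 ASO its mean was 1.22 FPKM, beside 1.18 FPKM for CTH. It held 1.28, 1.28 and 0.510 FPKM in controls, against 1.5, 1.43 and 0.729 FPKM with SCARNA13 ASO. It was higher in 3 of 3 replicate numbers, by ratios of 1.17, 1.11 and 1.43, with replicate 3 the lowest in each group and the groups overlapping. Its log2 difference was 0.19 ± 0.33 with no block and 0.18 ± 0.097 with GC correction and block (SE, n = 3), and it was -0.09 without Control ASO replicate 3. MTRR, which reactivates MTR and was no member, averaged 2.57 FPKM ± 0.515 under Control ASO and 2.38 ± 0.290 under SCARNA13 ASO (SD, n = 3).

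**Figure D3:**
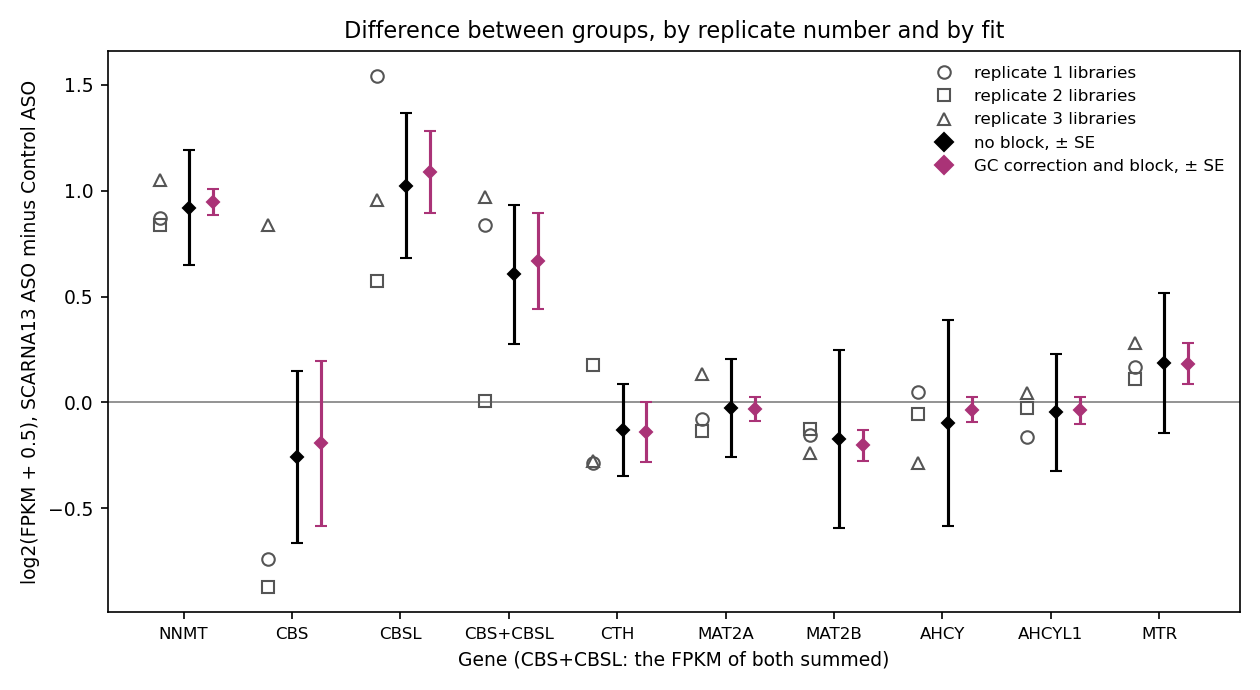
Difference in log2(FPKM + 0.5) between SCARNA13 ASO and Control ASO for each gene; open symbols are the libraries of 1 replicate number, black diamonds the fit with no block and purple diamonds the fit with GC correction and block, both with the SE. NNMT lies between 0.84 and 1.05 in the 3 replicates, while CBS lies at -0.74, -0.87 and 0.84.

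In the order of control levels, AHCY stood above MAT2A, MAT2A above NNMT and NNMT above AHCYL1, with no overlap of the 3 control libraries between neighbours. AHCYL1 and MAT2B overlapped, as did MAT2B and CBSL, CBSL and CBS, and CTH and MTR. The places of CBS and CBSL also depend on how reads matching both were counted, which is not stated. NNMT was above 85.9% of the 10120 genes tested in its control mean, AHCY above 96.4% and MTR above 2.22%.

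The replicate 3 shift of the members followed their GC content. On deposited values, AHCY, at 56.2% GC, was 1.29 higher on the log2 scale in replicate 3 than in the mean of replicates 1 and 2 of the control, and MAT2B, at 36.4% GC, was 0.99 lower, a difference of -0.99. After SCARNA13 ASO the same shifts were 1.00 and -1.10. Subtracting the GC trend left 0.44 and 0.32 for AHCY and -0.08 and -0.27 for MAT2B. For CBS, at 57.8% GC, the correction moved the control shift from -0.25 to -1.25, away from 0, and the shift after SCARNA13 ASO from 1.39 to 0.59. Over the 9 members with reads, shift and GC correlated at r = 0.73 in control and 0.91 in SCARNA13 ASO, a description over genes that share libraries.

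**Figure D4:**
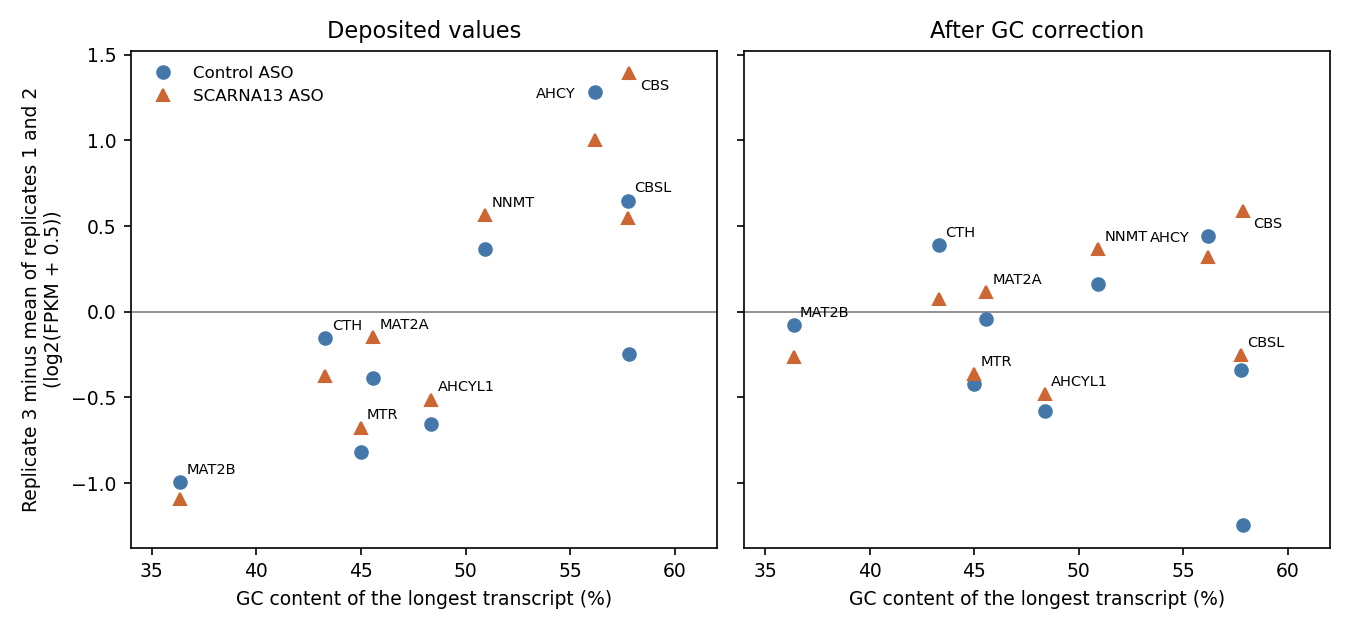
Replicate 3 minus the mean of replicates 1 and 2, in log2(FPKM + 0.5), against the GC content of the longest transcript in percent, for the 9 members with reads in control (blue circles) and SCARNA13 ASO (orange triangles), before (left) and after (right) the GC correction. Labels stand at the higher point of each gene. MAT2B moves from -0.99 to -0.08 in control, and CBS in control moves from -0.25 to -1.25.

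MTAP, methylthioadenosine phosphorylase (ENSG00000099810), gave 0 reads in all 6 libraries. It lies on chromosome 9 at 21802543 to 21937651 and has 14617 exonic bases, of which 13216 are shared with no other annotated gene. A count of 0 allows up to 3 reads, which is 0.00675 to 0.0157 FPKM in the control libraries and 0.00720 to 0.0132 FPKM in the SCARNA13 ASO libraries. MTAP is active in most tissues, and it neighbours the tumour suppressor genes CDKN2A and CDKN2B, with which it is often lost in tumours. CDKN2A, CDKN2B and DMRTA1 were at 0 in all 6 libraries as well. DNA was not measured here.

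The nearest protein-coding genes with at least 10 reads were KLHL9, 467 kb before MTAP with 2374 reads, and TUSC1, 3739 kb after it with 5552 reads. KLHL9 stood between 1.51 and 3.27 FPKM and TUSC1 between 15.3 and 29 FPKM. All 13 protein-coding genes between them had 0 reads, and 6 of them are interferon genes, a class silent in most resting cells. Of the 49 listed genes of any type between them, 2 had reads, 34 in all, and both were processed pseudogenes. Over the genome, 19.4% of 19847 protein-coding genes had 0 reads in all 6 libraries. The enzymes that act after MTAP in methionine salvage were present, with MRI1 at 8.35 to 12.7 FPKM, ADI1 at 10.3 to 12.8, ENOPH1 at 4.11 to 8.73 and APIP at 0.701 to 1.58.

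**Figure D5:**
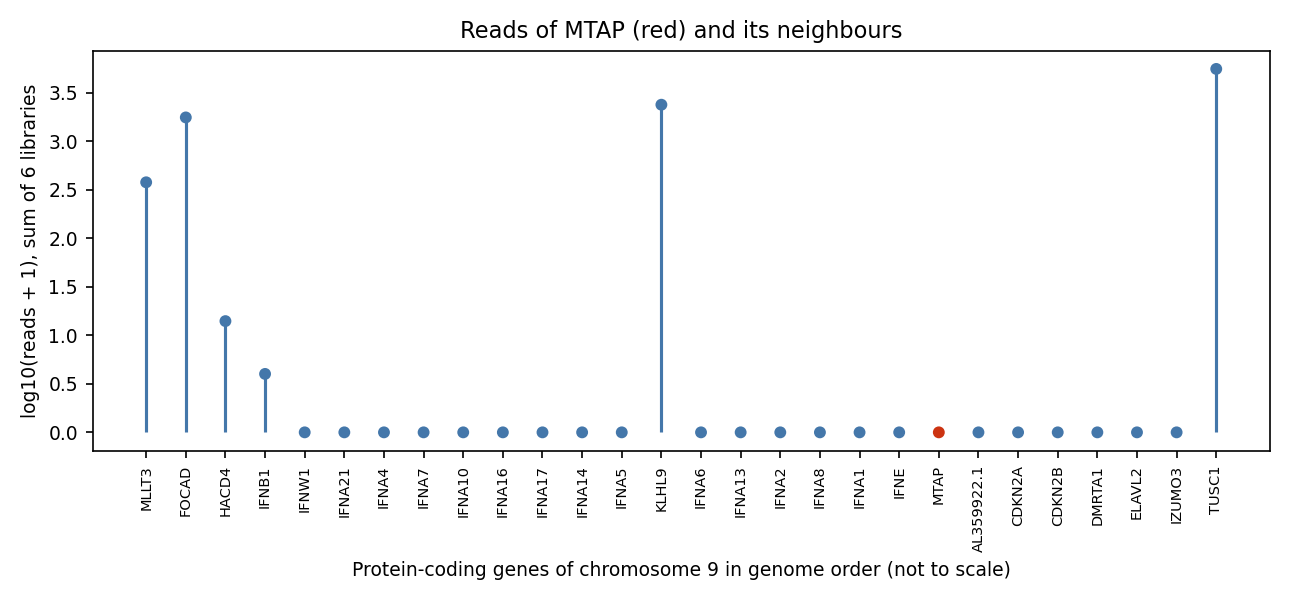
Reads summed over the 6 libraries, as log10(reads + 1), for protein-coding genes around MTAP (red) on chromosome 9, in genome order and not to scale. MTAP lies in a stretch of 13 genes at 0 between KLHL9 (2374 reads) and TUSC1 (5552 reads).

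Of the 10 members, 9 passed the filter on low values (an average of 1 FPKM or more over all 6 libraries), and MTAP did not. With no block, limma-trend called 0 of 10120 genes at a Benjamini-Hochberg adjusted p under 0.05 (173 at an unadjusted p under 0.05), a background of 0%, and so no member. The fit with GC correction plus block called 526 of 10104 genes, or 5.21%, of which 3.06% rose and 2.15% fell, and NNMT and CBSL were among those that rose. Within replicates 1 and 2 alone, the fit with no block called 922 genes, or 9.11% (4.52% rose, 4.59% fell), and the members among them were NNMT, which rose, and CBS, which fell. On recovered reads with a replicate block, limma-voom called 10.1% of genes, again NNMT and CBSL among members. The contrast chose the members, so these counts are not evidence about them.

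Other genes of the same metabolism came from 5 lists of 76 genes in all, and 57 passed the filter. With no block, 0 of the 57 were called, as was no gene at all. With GC correction and block, 3 rose, 1 fell and 53 did not pass, which is 7.02% of the 57 beside 5.21% of all genes. Within replicates 1 and 2 alone with no block, 6 of the 57 rose, 3 fell and 48 did not pass, in a fit that called 9.11% of all genes. The lists were chosen with earlier results of these data known. These counts, the share and the p-values given below for their genes are therefore a description. With GC correction and block, list medians lay between -0.05 and 0.13 on the log2 scale, beside 0.00 over all genes.

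Of 15 nicotinamide and NAD genes tested, 1 fell and 0 rose. PNP, purine nucleoside phosphorylase, which also splits nicotinamide riboside, held 13.1, 13.5 and 20.8 FPKM in controls, against 8.95, 8.33 and 12.8 FPKM with SCARNA13 ASO. Every SCARNA13 ASO library was below every control library. It fell by 0.63 ± 0.066 on the log2 scale (SE, n = 3; limma adjusted p = 0.0359 with GC correction and block, 0.00541 to 1.0 over all settings). NAMPT, the enzyme that recycles nicotinamide to NAD, held 2.54 FPKM ± 1.13 under Control ASO and 2.36 ± 0.877 under SCARNA13 ASO (SD, n = 3), far below NNMT. The deacetylase genes SIRT2 and SIRT7 stood at 0.45 ± 0.091 and 0.26 ± 0.057, and QPRT, of NAD synthesis from tryptophan, at 0.21 ± 0.047. None of them passed in the fit with GC correction and block. Within replicates 1 and 2 alone, the fit with no block called 9.11% of all genes. There SIRT2 (limma adjusted p = 0.0297) and QPRT (0.0469) rose and PNP (0.0195) fell. SIRT7 did not pass in it (0.0815).

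Of 8 further genes of the methionine cycle and homocysteine methylation tested, 0 passed. With GC correction and block, ADK, the kinase that removes the adenosine made by AHCY, stood at 0.35 ± 0.094 on the log2 scale (SE, n = 3). In the same fit SLC25A26, the carrier of SAM into mitochondria, stood at 0.27 ± 0.083 and MMADHC, of vitamin B12 handling, at -0.21 ± 0.074. With no block the 3 genes stood at 0.36 ± 0.34, 0.25 ± 0.15 and -0.19 ± 0.40. All 4 salvage genes stayed within 0.06 of 0 with GC correction and block, and none passed.

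Of 17 cysteine, glutathione and sulfide genes tested, 2 rose and 0 fell. SLC7A11, the cystine importer that supplies cysteine from outside the cell, held 2.88, 2.73 and 1.24 FPKM in controls, against 4.77, 4.19 and 1.94 FPKM with SCARNA13 ASO. It was higher in 3 of 3 replicate numbers, though replicate 3 after SCARNA13 ASO lay below Control ASO 1 and 2, and rose by 0.53 ± 0.083 on the log2 scale (SE, n = 3; limma adjusted p = 0.0412 with GC correction and block, 0.00625 to 1.0 over all settings). ETHE1, a mitochondrial enzyme of sulfide oxidation, held 35.8, 32.7 and 109 FPKM in controls, against 46.7, 42.8 and 119 FPKM with SCARNA13 ASO and rose by 0.37 ± 0.048 (limma adjusted p = 0.0365 with GC correction and block, 0.0312 to 1.0 over all settings). Its difference was -0.17 on deposited values without SCARNA13 ASO replicate 3. CHAC1, which breaks down glutathione, stood at 0.36 ± 0.083 and ANPEP, a peptidase gene, at -0.24 ± 0.058, without passing in that fit. Within replicates 1 and 2 alone with no block, CHAC1 passed (limma adjusted p = 0.0325) and ANPEP did not (0.0742). In replicate 3, CHAC1 was lower after SCARNA13 ASO, at 48.2 FPKM against 51.3 FPKM in control. The log2 difference of CHAC1 over all 6 libraries was 0.29 ± 0.82 with no block (SE, n = 3). It ran from -0.31 to 1.08 over 25 settings.

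Among the 13 SAM-using methyltransferase genes tested were COQ5, of ubiquinone synthesis, TPMT, which methylates thiopurines, and PEMT, which makes phosphatidylcholine. With GC correction and block they stood at 0.31 ± 0.088, 0.31 ± 0.094 and 0.15 ± 0.050 on the log2 scale (SE, n = 3) without passing. With no block they stood at 0.30 ± 0.28, 0.34 ± 0.33 and 0.07 ± 0.63. In replicate 3, PEMT was lower after SCARNA13 ASO, at 77.6 FPKM against 85.5 FPKM in control.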

How the data were processed

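Total RNA of 6 HCCLM3 libraries was sequenced after an Illumina TruSeq RNA preparation, per the labels' protocols. The standard form of this kit enriches poly(A) RNA and gives libraries without strand. The submitters' processing notes name TopHat2 2.0.9, Bowtie2 2.0.6 and hg19, without roles; the counting tool is not stated. The deposited files hold 1 FPKM value per gene and library; their positions are GRCh38, since 97.6% of 58039 identifiers had the same start and end in GENCODE 29. Each FPKM times gene length was a whole multiple of 1 step per library (100% of values within 0.01 reads), which gave reads and the library size behind the scale.

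Groups and replicate numbers came from titles. The test was limma-trend (limma 3.58.1, R 4.3.3) on log2(FPKM + 0.5), group as the only term, two-sided, over genes averaging 1 FPKM or more. Deviations from group means correlated at 0.84, 0.78 and 0.91 for same-numbered libraries 1, 2 and 3, each above the limit of 0.1 set for treating numbers as pairs. Control ASO 1 with SCARNA13 ASO 2 and Control ASO 2 with SCARNA13 ASO 1 reached 0.81 each, so the correlations set replicate 3 apart and do not separate numbers 1 and 2, whose pairing comes from the titles alone. The GC correction subtracted a loess trend (span 0.5) on the GC content of the longest GENCODE 29 transcript. Members and lists were chosen with earlier results of these data known. Named genes were the members, the targeted RNA and its host, up to 4 genes per list with the smallest p with GC correction and block or any that passed, and the 5 genes most correlated with NNMT; the same 5 for the sum of CBS and CBSL are given under other observations. Sequences were read from GENCODE 29 transcripts. Exact binomial intervals are at 95%. Alternatives changed the pseudocount, filter, scaling, model and libraries. The values of 1 gene of the lists are not reported here.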

Additional observations from a re-analysis of the deposited data

How the results depend on the processing

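The count of genes past the threshold was 0 with no block at every pseudocount, filter, scaling and single left-out library tried, without the intensity trend, with a replicate block on deposited values, with GC correction and no block, and with limma-voom and no block. GC correction plus a replicate block gave 526 of 10104 genes, or 5.21% (309 rose, 217 fell). Limma-voom on recovered reads with a replicate block gave 1023 of 10120, or 10.1% (498 rose, 525 fell). NNMT and CBSL were the members called in both. Without replicate 3 of both groups and with no block, the count was 922 of 10120, or 9.11% (457 rose, 465 fell). Leaving out the same libraries, GC correction and block gave 774 of 10104 (429 rose, 345 fell). A block on deposited values, in a fit added after the data were seen, gave 629 of 10120 (336 rose, 293 fell) without them. NNMT and CBS were the members called in each fit without replicate 3. The contrast chose the members, so these calls are not evidence about them. GC correction and block gave 14 genes (6 rose, 8 fell) when replicate 1 was left out of both groups and 0 when replicate 2 was, and no member in either. The cause of these changes was not tested. Log2 differences of NNMT, CBSL, the CBS and CBSL sum and CTH kept their sign in every alternative run on them, and no member moved by more than 1 SD between libraries. The sign changed in 3 of 23 alternatives for CBS, 1 of 23 for MTR, 2 of 24 for MAT2B, 5 of 24 for AHCY, and 6 of 24 for MAT2A and for AHCYL1. Scaling by total reads moved the median of all genes from -0.02 to 0.06 and NNMT from 0.92 to 1.02. A filter at a mean of 5 FPKM left out CBS, CBSL, CTH and MTR, and MTAP has no value in any fit. CTH and MTR rest on 34 to 123 and 76 to 464 reads per library, which limits their precision.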

Other observations

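The genes whose log2 values over the 6 libraries were most like those of the CBS and CBSL sum were PXDC1 (Pearson r = 0.997), OSGEP, of tRNA modification (0.974), DHRSX (0.970), HADHA, of mitochondrial fatty acid oxidation (0.957), and the pseudogene AC018638.2 (0.955). Of 10118 genes, 37 (0.366%) had r over 0.9. OSGEP held 2.80, 2.98 and 3.14 FPKM in controls and 3.58, 2.90 and 4.78 FPKM after SCARNA13 ASO, in replicate order. For OSGEP, SCARNA13 ASO 2 lay below Control ASO 2, while the FPKM sum of CBS and CBSL was 4.45 and 4.43 in these libraries. All 6 points share the group difference and the replicate 3 shift.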
